A study of Drosophila melanogaster with 4 samples.

Results

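The KDM4A-enriched regions of 3L, the left arm of chromosome 3, were taken as every enriched row on 3L in the list the authors deposited for the replicate set. This gave 1654 regions, out of 8653 enriched regions on all chromosomes and 6550 on the other large arms, 2L, 2R, 3R and X. The samples were nuclei from heads of wild-type Oregon-R flies, labelled as mixed adults, in which KDM4A (also named JMJD2A) was mapped by ChIP-seq, the sequencing of DNA precipitated with an antibody. Replicates 1 and 2 of the KDM4A ChIP were made with the antibody Q2541, and each had an input sample from the same kind of nuclei, which makes 2 ChIP and 2 input samples. Each ChIP sample had its own region list beside that of the replicate set, while the inputs had none and could act only through the calling of the regions. Whether the replicates were separate collections of flies is not stated, and the spread between them may therefore be technical. All cell types of the head were pooled, so a region bound strongly in few cells and one bound weakly in many cannot be told apart.

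KDM4A takes methyl groups off lysines of histone H3 and is known in flies to bind the heterochromatin protein HP1a. HP1a itself binds methylated histone H3 and is concentrated in the repeat-rich heterochromatin around the centromeres. The assembled sequence of 3L starts near the telomere at its low-coordinate end and runs into this pericentric heterochromatin at its high-coordinate end, called the centromeric end here. Positions are on FlyBase release 5, counted from 1. Regions are named by position, and genes at them were not looked up.

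On 3L replicate 1 held 1268 regions and replicate 2 held 1369 regions, against 5148 and 5602 on the other large arms together. The regions of 3L covered 15.5% of the arm in replicate 1 and 16.6% in replicate 2, a mean of 16.1 ± 0.783% (SD, n = 2), while the other large arms pooled by length were covered over 17.4 ± 0.863% (SD, n = 2). The replicate-set list covered 4.87 Mb of 3L, or 19.8%, against 21.7% of the other arms. In each of the 3 lists 3L ranked 4 among the 5 large arms by covered share. The samples form a single group of 2, for which an exact two-sided sign-flip test cannot go below p = 0.5, so no test was run and the arms are given as values side by side.

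Coverage of 3L was not even along the arm. The window at the centromeric end was the lowest of the arm in the replicate set and in replicate 1, while in replicate 2 the lowest was the one between 19 and 20 Mb, with 6.92%. Over 25 windows of 1 Mb counted from that end, the median window of the replicate-set list was covered over 20.8%, with quartiles of 15.9 and 25.1%. The window at the centromeric end had 2.21% in replicate 1, 8.27% in replicate 2 and 4.66% in the replicate set. The next window had 6.49% in replicate 1, 9.81% in replicate 2 and 9.81% in the replicate set. Beyond these, coverage in the replicate set was 15.9% between 2 and 3 Mb and 21.9% between 3 and 4 Mb, and it reached its highest value, 33.6%, between 4 and 5 Mb. The same window was the highest of 3L in each replicate, with 26.1% in replicate 1 and 27.6% in replicate 2. The next highest windows of the replicate set lay far out on the arm, between 15 and 16 Mb with 27.4% and between 21 and 22 Mb with 26.3%.

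**Figure D1:**
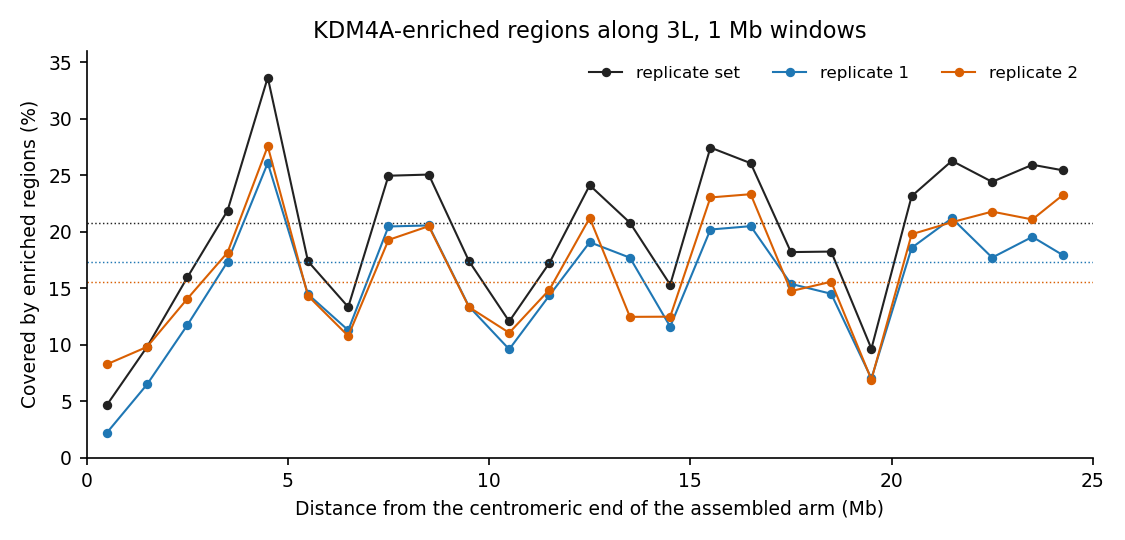
Percent of each 1 Mb window of 3L covered by KDM4A-enriched regions, against distance in Mb from the centromeric end of the assembled arm, for the replicate set and both replicates (points joined by lines). Dotted lines are each list's median window. The 2 windows next to the centromere and the one between 19 and 20 Mb are the lowest of the replicate set, and the window between 4 and 5 Mb, at 33.6%, is the highest.

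A low window also occurred far from the centromere. Between 19 and 20 Mb from the centromeric end, at 4543558 to 5543557, coverage was 7.02% in replicate 1, 6.92% in replicate 2 and 9.65% in the replicate set. The replicates lay closer together there than at the centromeric end, where the difference between them was the largest of any 3L window, at 6.06 percentage points. Across the 25 windows the covered shares of the replicates had a Pearson correlation of 0.91 and a Spearman correlation of 0.89. These windows share their libraries and are not replicates, so the correlation is a description. The telomeric end had no such low stretch, since the last 543557 bp of the arm were covered over 25.4% in the replicate set.

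How far the low end reached was measured as the run of consecutive windows under 50% of the arm's median window. In the replicate set the run was 2 Mb long on 3L, against 1 Mb on X and 0 Mb on 2L, 2R and 3R. Replicate 1 gave 2 Mb on 3L, 2 Mb on X and 0 Mb on the other 3 arms. In replicate 2 the 3L run was 0 Mb, because its first window of 8.27% lay above 7.79%, the mark set by a median of 15.6%, and X had 1 Mb. With windows of 500 kb the 3L run was 1.5 Mb in the replicate set and in replicate 1 and 0.5 Mb in replicate 2. With windows of 250 kb it was 1.5 Mb in the replicate set and in replicate 1 and 0.25 Mb in replicate 2. With 500 kb windows 2L and X also had a run of 0.5 Mb in the replicate set and in replicate 1, and 2R and X had one in replicate 2. With 250 kb windows X had 0.5 Mb in each list, and 2R had 0.25 Mb in replicate 2. In replicate 2 the 3L run was thus not longer than that of X at any of these sizes. Windows of 200 kb gave no single clean edge. Every one of the 8 windows within 1.6 Mb of the end was covered over less than 10% in the replicate set, between 1.73 and 9.79%. The window between 1.6 and 1.8 Mb reached 19.9%, the one between 1.8 and 2.0 Mb had 9.80%, and the one between 2.0 and 2.2 Mb had 2.91%. From 2.2 to 3.8 Mb all 8 windows lay between 14.0 and 33.8%, and the window between 3.8 and 4.0 Mb was again low, with 2.16%.

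Taking the last 2 Mb, at 22543558 to 24543557, as the centromere-proximal end, 71 of the 1654 regions lay there and 1583 on the rest of the arm. The proximal end was covered over 4.35% in replicate 1 and 9.04% in replicate 2, a mean of 6.70 ± 3.32% (SD, n = 2), against 16.5% and 17.3% on the rest of 3L, a mean of 16.9 ± 0.559% (SD, n = 2). Both replicates thus had the lower share at the proximal end, and the values did not overlap, although the size of the gap differed between them. In the replicate set the shares were 7.23% at the proximal end and 20.9% on the rest. Regions were fewer there in each list, with 15.5 per Mb at the proximal end against 54.9 on the rest in replicate 1, 43.0 against 56.9 in replicate 2 and 35.5 against 70.2 in the replicate set. Median width did not go the same way in the lists. It was 2578 bp at the proximal end against 2396 bp on the rest in replicate 1, 1721.5 against 2201 bp in replicate 2 and 1390 against 2140 bp in the replicate set. On each other large arm too, the proximal median was the wider in replicate 1 and the narrower in replicate 2.

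Scores of the proximal regions lay near those of the rest of the arm, apart from a higher median in replicate 1. The median score, the authors' value per region on a scale that is not stated, was 0.536 at the proximal end and 0.549 on the rest in the replicate set. In replicate 1 the median was 1.23 over 31 proximal regions and 0.906 over the other 1237. In replicate 2 it was 0.916 over 86 proximal regions and 0.923 over the other 1283. The other large arms also had the higher proximal median in replicate 1. It was 1.05 against 0.955 on 2L, 1.10 against 0.976 on 2R, 1.16 against 1.02 on 3R and 1.55 against 1.19 on X.

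On the other arms the same 2 Mb gave a wide range of values. In the replicate set the proximal share was 14.3% against 20.0% on 2L, 17.7% against 25.8% on 2R, 10.9% against 22.1% on X, and 28.1% against 21.1% on 3R, across the centromere from 3L. The share of 3L, 7.23%, was the lowest of the 5 in the replicate set, and so was its 4.35% in replicate 1. In replicate 2 X was lower, at 6.82%, than 3L at 9.04%. At this length the 2 arms of chromosome 3 lay on opposite sides in every list, with a difference of -12.1 points on 3L and 5.55 on 3R in replicate 1, and -8.25 on 3L and 4.86 on 3R in replicate 2. The value of 3R depended on the length taken. In the replicate set the difference over 1 Mb was -15.8 points on 3L and 1.98 on 3R, and over 4 Mb it was -8.08 points on 3L and 0.097 on 3R. Over 4 Mb 3R had 0.238 points in replicate 1 and -0.233 in replicate 2, while 3L had -7.25 in replicate 1 and -4.83 in replicate 2.

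**Figure D2:**
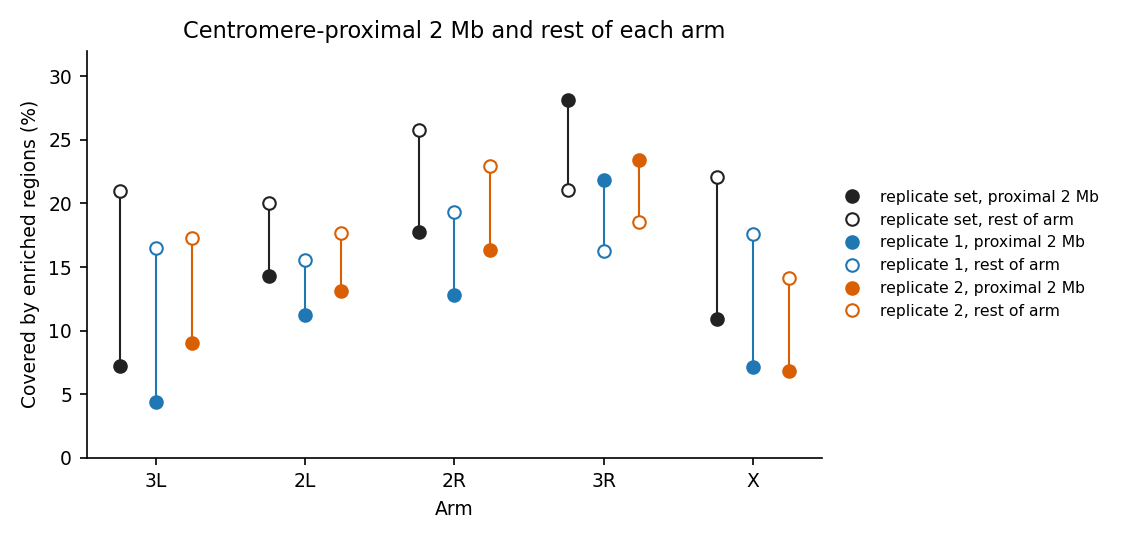
Percent of sequence covered by KDM4A-enriched regions in the centromere-proximal 2 Mb (filled) and the rest (open) of 3L and the other large arms, for the replicate set and both replicates. On 3L the filled points lie below the open ones in all 3 lists, and on 3R they lie above them.

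The separate sequence 3LHet, which holds heterochromatin assigned to the same arm, was covered over 2.69% in replicate 1 and 6.00% in replicate 2. Replicate 2 was thus the higher there too, as in the window at the centromeric end of 3L. Replicate 2 also had more regions than replicate 1 in both places, with 72 against 22 on 3LHet and 42 against 8 in that last 1 Mb of 3L. As background, replicate 2 had the higher coverage in 16 of the 25 windows of 1 Mb on 3L. It did so in 22 of 23 on 2L, 21 of 21 on 2R, 25 of 28 on 3R and 2 of 22 on X.

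Individual regions next to the centromere could still be strong. The region nearest to the end, at 24528033 to 24532408 and 11.1 kb from it, had a width of 4376 bp and a score of 2.14, which ranked 31 among the 1654. It scored 2.43 in replicate 1 and 1.83 in replicate 2. The highest score within the 2 Mb was 2.32, at 22732151 to 22736268, with 2.57 in replicate 1 and 2.06 in replicate 2. Another, at 23330160 to 23333774, scored 2.11 in the replicate set, 2.48 in replicate 1 and 1.62 in replicate 2. All 3 were called in each replicate. The other 4 of the 5 regions nearest to the end were of the weaker kind, with widths of 1086 to 1683 bp and scores of 0.409 to 0.807. Of these 4, 3 met no region of either replicate, and the one at 24309583 to 24310742 met a region of replicate 2 that scored 1.18. At the telomeric end the 3 outermost regions began at 122794, 125660 and 127786, with scores of 0.522, 0.466 and 0.705.

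The highest-scored 3L region held by both replicates was 3904 bp wide, at 9433210 to 9437113, with a score of 3.09 in the replicate set, 3.64 in replicate 1 and 2.70 in replicate 2. It ranked 9 among all 8653 regions. The next lay at 15973853 to 15977981 with a score of 2.71 (3.38 in replicate 1, and 1.70 for the higher of its 2 regions in replicate 2). The next after it, at 21720690 to 21724006, scored 2.64 in the replicate set, 2.94 in replicate 1 and 2.49 in replicate 2. It lay 2.82 Mb from the centromeric end. The other two of the top 5 lay at 2850575 to 2853118 (score 2.63) and at 17466961 to 17470633 (score 2.55). These 5 regions were spread over the arm, from 2.82 to 21.7 Mb from the centromeric end, and were 2544 to 4129 bp wide, so none of them was among the broad ones.

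Broad regions, of 8 kb or more, were 83 of the 1654 on 3L (5.02%), against 5.27% of the regions on all chromosomes and 5.59% on the other large arms. They held 18.6% of the covered sequence of 3L, against 20.9% on the other large arms. All 83 overlapped regions of each replicate, as did all 366 regions of 8 kb or more on the other large arms. Only 13 of the 83 met exactly 1 region in each replicate, while 57 met 2 or more of replicate 1 and 43 met 2 or more of replicate 2. The widest, at 6732060 to 6751082, measured 19023 bp with a score of 1.64, and it was 1 region in replicate 1 and 3 regions in replicate 2. The region at 12513186 to 12531907, of 18722 bp and score 1.18, was 4 regions in replicate 1 and 2 in replicate 2. The other three of the 5 widest measured 18314 bp at 5748488, 17352 bp at 8106882 and 15205 bp at 19824209. The broad regions scored from 0.574 to 2.50, with a median of 1.36, against a median of 0.530 for the other 3L regions. Of the broad regions 1 lay in the centromere-proximal 2 Mb, at 22862705 to 22874149 with 11445 bp. The window between 4 and 5 Mb held 10 of them, the most of any window.

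Width and score were related in different ways below and above 2 kb, a split chosen after the values were seen. Of the 3L regions, 906 were 2 kb or wider and 748 were narrower. Among the wider ones the median score was 0.980 and the score went up with width (Spearman rho 0.46). Among the narrower ones the median score was 0.411 and the score went down with width (rho -0.47). Between neighbouring width steps, the median was 0.361 for 174 regions of 1750 to 2000 bp and 0.583 for 151 regions of 2000 to 2250 bp. On the other large arms the medians of these width steps were 0.415 and 0.621. There the rho of each arm lay between 0.40 and 0.50 for 2 kb or wider and between -0.45 and -0.41 below. A rank correlation over all 3L regions, 0.66, joins both sides of this split and describes neither side. The fall below 2 kb was weaker in the replicate lists. In the list of replicate 1 the rho on 3L was 0.46 for 2 kb or wider and -0.12 below. In replicate 2 it was 0.49 for 2 kb or wider and -0.08 below.

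**Figure D3:**
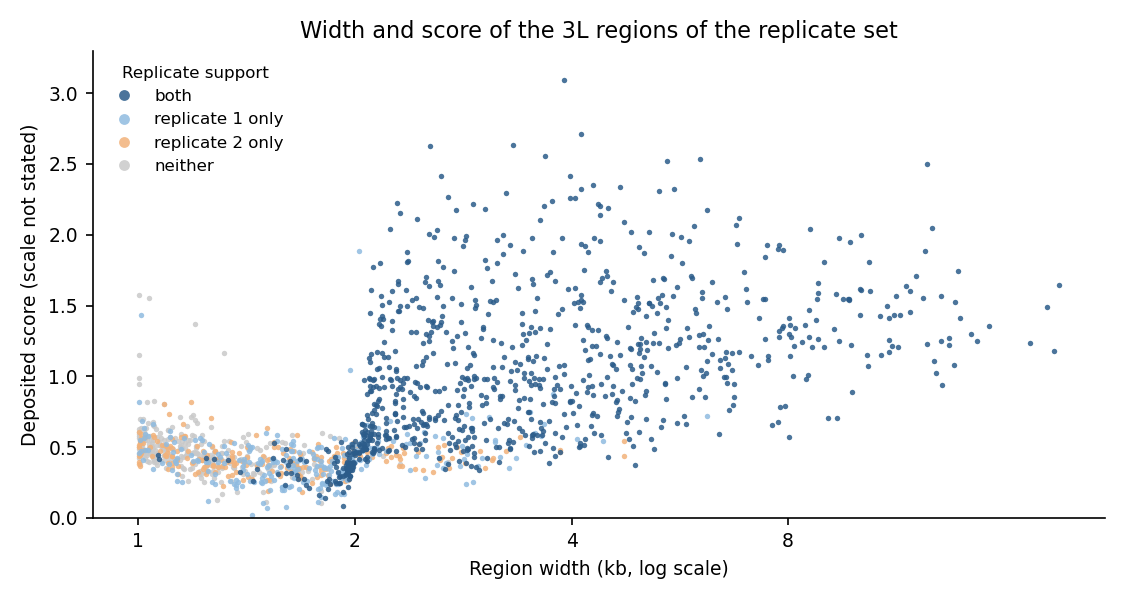
Width in kb (log scale) and deposited score of each 3L region of the replicate set, coloured by whether it overlaps a region of both, one or neither replicate list. Scores decline with width below 2 kb, where few regions are held by both replicates, and spread upward from 2 kb on.

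Support by the replicates followed the same division. Of the 1654 regions, 879 shared at least 1 bp with regions of both replicate lists (53.1%, 95% Wilson interval 50.7 to 55.5%), against 52.4% over all chromosomes. A further 275 (16.6%) met a region of replicate 1 only, against 16.0% over all chromosomes, and 224 (13.5%) met a region of replicate 2 only, against 13.2%. The remaining 276 (16.7%) met neither, against 18.4%. These shares of 3L lie close to those of the whole list. Support by both was 87.6% among the 906 regions of 2 kb or more and 11.4% among the 748 narrower ones. On the other large arms these shares were 88.1% and 7.74%. The narrowest 3L region was 1001 bp wide in the replicate set but 1301 bp in each replicate list. What these unlike lower limits add to the relation of width and support was not tested. By score, support by both on 3L was 17.8%, 22.9%, 73.6% and 98.3% in 4 groups of about equal number from the lowest to the highest. These score groups were not formed on the other arms. The 879 regions held by both replicates made up 75.0% of the sequence of 3L covered in the replicate set, and the 276 held by neither made up 7.10%. Median width was 3226 bp for regions held by both, 1727 bp for those met by replicate 1 only, 1517.5 bp for those met by replicate 2 only, and 1189.5 bp for those held by neither. The list of the replicate set was made from the same 2 samples, so its support by them is not independent.

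Fewer proximal regions were held by both replicates. In the centromere-proximal 2 Mb, 21 of 71 regions met each replicate (29.6%, 95% Wilson interval 20.2 to 41.0%), against 858 of 1583 on the rest of 3L (54.2%, interval 51.7 to 56.6%). Regions that met neither were 30 of 71 (42.3%) at the proximal end and 246 of 1583 (15.5%) on the rest. Neighbouring regions are not independent, so these intervals cover counting only. The proximal regions of the replicate set were also narrower, with the medians given above, and the part of width in this difference was not tested. On the other arms, support by both at the proximal 2 Mb was 40.5% on X, 40.2% on 2R, 55.9% on 2L and 56.1% on 3R.

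**Figure D4:**
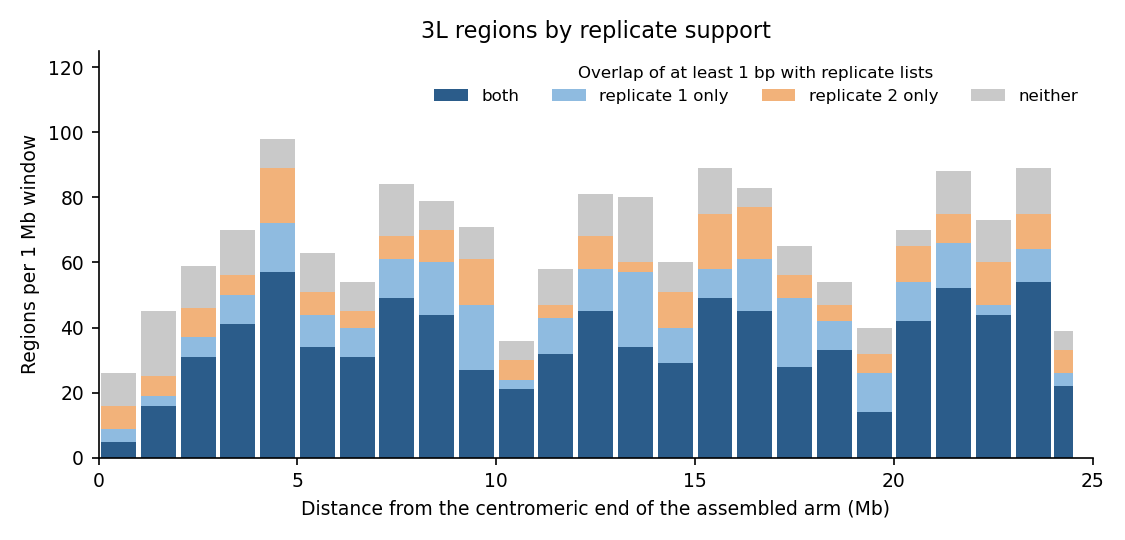
Number of 3L regions of the replicate set in each 1 Mb window, against distance in Mb from the centromeric end, split by overlap of at least 1 bp with the replicate lists (the last window is 543557 bp). The 2 windows next to the centromere hold 26 and 45 regions, of which 5 and 16 overlap both replicates.

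Looked at from the replicates, the same end differed between them. Replicate 1 had 31 regions and replicate 2 had 86 in the proximal 2 Mb. Of those of replicate 1, 23 (74.2%) met a region of replicate 2, but of those of replicate 2 only 23 (26.7%) met one of replicate 1. On the rest of 3L the share was 77.4% for replicate 1 and 72.2% for replicate 2. The replicates shared 28.1% of the sequence covered by either at the proximal end, against 55.6% on the rest. Regions of replicate 2 were also often missing from the replicate-set list there, with 52 of 86 (60.5%) meeting no region of that list, against 187 of 1283 (14.6%) on the rest. For replicate 1 the counts were 2 of 31 (6.45%) and 25 of 1237 (2.02%). The 52 had a median width of 1567 bp and a median score of 0.910, close to the 0.938 of the 34 proximal regions of replicate 2 that were in the list.

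Strong regions held by a single replicate were also found near the centromere. The highest-scored 3L region with support from 1 replicate, at 23663319 to 23665345, scored 1.89 in the replicate set and 2.69 in replicate 1, and it met none of replicate 2. Another, at 24013123 to 24015090, scored 1.04 in the replicate set and 2.02 in replicate 1. They lay 878 and 528 kb from the centromeric end. The second highest of this kind, at 3040258 to 3041265, lay far out on the arm and scored 1.43 in the replicate set but only 0.607 in replicate 1. Of regions with no support in either replicate the highest scored 1.57, at 23105678 to 23106678. The next were 1.55 at 21015574 to 21016606 and 1.37 at 16613926 to 16615125, and all 3 were 1200 bp wide or less.

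Regions of 3L lay farther apart than those of the other arms by the median gap. In the replicate set the median gap between neighbours was 3808 bp on 3L, against 3452.5 bp on the other large arms pooled and 3206 to 3738 bp on each. In replicate 1 it was 5240 bp on 3L and 4477.5 to 5187.5 bp on the others, and in replicate 2 it was 4930.5 bp on 3L and 4084 to 4772 bp on the others. The median of 3L was thus the highest of the 5 in all 3 lists. The next was 2L in the replicate set, with 3738 bp. Density did not show the same order, with 67.4 regions per Mb on 3L against 60.3 on 2L, 64.9 on 3R, 76.7 on X and 77.2 on 2R in the replicate set.

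Gaps were skewed, with many short ones and a few very long ones. On 3L 36.2% of the gaps were shorter than 2 kb, against 38.6% on the other large arms, and 257 gaps (15.5%) were longer than 20 kb, against 16.3%. Those 257 gaps held 52.7% of the arm, against 53.5% of the other arms. The 5 longest measured 224.3, 206.6, 205.6, 167.8 and 164.3 kb. The longest, at 23788793 to 24013122, and the fifth, at 23474131 to 23638431, lay in the proximal 2 Mb. The second lay at 13510126 to 13716696, next to a region of 5827 bp with a score of 1.95. The third lay at 9968507 to 10174074, and the fourth at 20535840 to 20703671, 3.84 Mb from the centromeric end.

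The long gaps were not all empty in the replicates. The gap of 224.3 kb in the proximal 2 Mb, the second longest on the 5 large arms, held 11 regions of replicate 2 over 8.58% of its length, while replicate 1 touched it over 0.0125%. In the other 4 gaps neither replicate covered more than 2.61%. Of 245 windows of 100 kb on 3L, 8 (3.27%) held no region of the replicate set, 19 held none of replicate 1 and 11 none of replicate 2, and 6 held none of either replicate.

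Isolated regions, with more than 20 kb to both neighbours, were 68 of the 1654 (4.11%) on 3L, and 3.92 to 7.79% on each of the other large arms. Of the 68, 10 lay in the proximal 2 Mb. Their median width was 1722 bp, against 2135.5 bp for the other 1586, and their median score 0.543, against 0.550. Held by both replicates were 33.8% of the isolated regions and 54.0% of the others. The same 2 shares were 35.9 and 56.25% on 2R, 38.2 and 57.3% on 3R, 24.7 and 48.4% on X, and 52.8 and 57.2% on 2L. At the other extreme, 506 regions of 3L (30.6%) lay in runs of 3 or more with less than 2 kb between neighbours, against 35.9 to 37.6% on each of the other arms. The longest run on 3L, 8 regions at 7315504 to 7357695, was 80.9% covered over 42.2 kb with a median score of 1.10. Longest runs on the other arms had 10 to 17 regions. Between the scores of a region and the next on 3L the Spearman correlation was -0.01 over 1653 pairs, given as a description.

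By score, 3L ranked lowest among the large arms. The median was 0.549 on 3L and 0.574 to 0.727 on the other arms in the replicate set, 0.909 on 3L and 0.970 to 1.20 in replicate 1, and 0.922 on 3L and 0.932 to 1.13 in replicate 2. The medians of 2L, 2R and 3R lay near that of 3L, and X stood highest. Of the highest-scored 865 of all 8653 regions, 127 (14.7%) lay on 3L, which held 19.1% of all regions. Of the widest 865, 144 (16.6%) lay on 3L. The median width of 3L regions was 2115 bp, against 2097 to 2221 bp on the others.

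Scores were compared between the replicates over 678 pairs of 3L regions that overlapped one to one. The median score was 1.09 in replicate 1 and 1.00 in replicate 2, and replicate 1 was the higher in 397 pairs and replicate 2 in 281. The median of the differences was 0.07, with quartiles of -0.18 and 0.34. As percentiles within each list the median difference was -0.49 points, of the other sign. On X the same median difference was 0.25 over 698 pairs, and on 2L, 2R and 3R it was 0.03 to 0.06. On 3L the scores of the pairs had a Pearson correlation of 0.75 and a Spearman correlation of 0.70, as a description over regions that share their libraries.

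**Figure D5:**
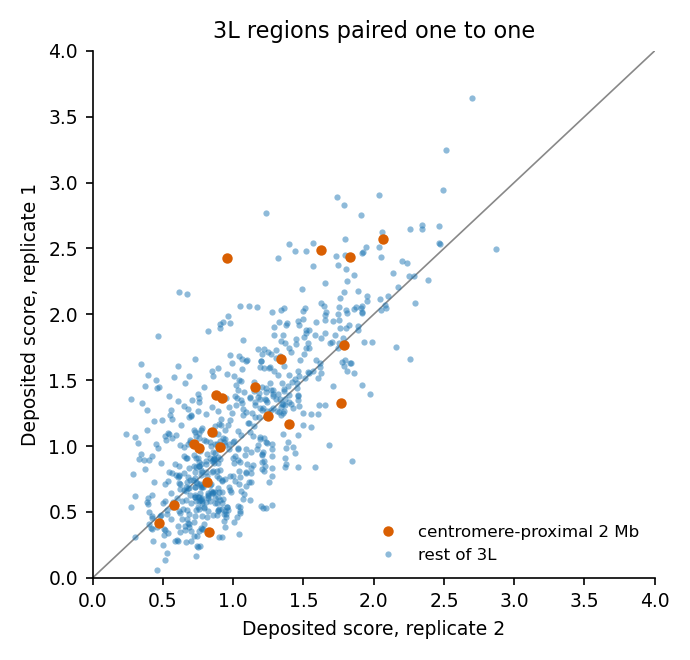
Deposited scores of 678 one-to-one pairs of 3L regions in replicate 1 (vertical) and replicate 2 (horizontal), with the line of equal scores and the pairs of the centromere-proximal 2 Mb marked. Of the 20 proximal pairs 12 lie above the line, against 385 of 658 on the rest of the arm. The median of replicate 1 minus replicate 2 was 0.246 for the proximal pairs, with quartiles of -0.03 and 0.46. For the rest it was 0.062, with quartiles of -0.18 and 0.34.

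The pairs that differed most were 2063 to 5084 bp wide in replicate 1. The largest difference, 1.56, was at 7520477 to 7523437 (positions in replicate 1), with a score of 2.17 in replicate 1 and 0.616 in replicate 2. Next were the pairs at 17794011 to 17796588, with 2.77 in replicate 1 and 1.24 in replicate 2, and at 18177718 to 18180213, with 2.15 in replicate 1 and 0.674 in replicate 2. In the other direction the largest were smaller, with 0.889 in replicate 1 and 1.84 in replicate 2 at 3615537 to 3617599. The pair at 16343901 to 16348984 had 0.841 in replicate 1 and 1.58 in replicate 2, and that at 11807527 to 11809631 had 0.556 in replicate 1 and 1.28 in replicate 2. None of these 6 lay in the proximal 2 Mb. The pair with the next largest difference, 1.47, did, at 24019718 to 24023872 and 0.522 Mb from the centromeric end, with 2.42 in replicate 1 and 0.955 in replicate 2. It was named after its values were seen.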

How the data were processed

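The submitters' processing notes name Bowtie 0.12.7. FlyBase release 5 is the build per the file headers. Each deposited list gives the start and end of enriched regions in bp and the authors' score of each region, on a scale that is not stated, so no folds were formed. How regions were called, at what threshold, and whether the replicate set pooled reads is not given in the sources used here. Depth is unknown, as read counts are not part of the lists. Rows of depletion (1, on X) were left out. Regions within a list did not overlap.

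Covered shares are of all assembled sequence, with no part left out as a gap or as sequence on which reads cannot be placed. What such sequence adds to the low share near the centromere was not tested. Regions were put in a window by their midpoint, and covered bp were counted base by base. A last window under 50% of its size was dropped. Support means an overlap of at least 1 bp. Named were the 5 highest-scored and 5 widest regions held by both replicates, the 5 nearest the centromeric and 3 nearest the telomeric end, the 5 longest gaps, the 3 highest-scored regions of no or single support, the 3 highest and 3 lowest windows and the 3 largest score differences each way. The strongest and the broad regions of the proximal 2 Mb, the 200 kb windows, isolated regions and neighbour runs, the highest-ranked 865, shared scores and the 2 kb split were added after their values were seen. The members and all lists were chosen with earlier results of these data known. Alternatives were other lists, score filters, overlaps, windows and background arms. Python 3.11.15, numpy 2.4.6, pandas 2.3.3, scipy 1.17.1 and matplotlib 3.10.9 were used, and 9 checks on simulated lists gave the planted answers. A gene table of release 6 was not used.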

Additional observations from a re-analysis of the deposited data

Results flagged for a closer look

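The covered share of the centromere-proximal 2 Mb minus that of the rest of the arm was -13.7 percentage points on 3L and 7.06 points on 3R in the replicate-set list. At this length each replicate gave the same signs. Over 1 Mb the replicate-set difference was -15.8 points on 3L and 1.98 on 3R. Over 4 Mb it was -8.08 points on 3L and 0.097 on 3R, and 3R then had 0.238 in replicate 1 and -0.233 in replicate 2, so the opposite sign of 3R did not hold at every length. The difference between the arms was not tested.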

How the results depend on the processing

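No value here comes from a test, so alternatives were set against the SD between the replicates. All 57 were planned. Of 55 judged in this way, 12 moved a value by less than that spread. Ranges below put the own list of each replicate in place of the replicate set, which was not called again without a replicate. For support they count overlap with the list of a single replicate. The higher-scored 50% were cut at the median score of all chromosomes, which kept 4328 of 8653 regions and 718 of the 1654 on 3L. 3L had the lowest median score of the large arms, so the cut kept a smaller share of its regions. That enters its differences from the other arms under this setting. The covered share of 3L ran from 15.5 to 16.6%. It was 14.9% for regions held by both replicates and 13.0% for the higher-scored 50%. Its difference from the other arms ran from -1.37 to -1.26 points. This difference was -1.81 for regions held by both and -2.67 for the higher-scored 50%. It was -2.11 without X and -1.16 without the proximal 2 Mb of every arm. The proximal difference, -13.7 points, ran from -12.1 to -8.25, and was -12.0 for regions held by both, -9.76 for the higher-scored 50%, -15.8 with 1 Mb and -8.08 with 4 Mb. The low end ran from 0 to 2 Mb. The gap difference ran from 542 to 608.5 bp, and was 217 bp for regions held by both, 2881 bp for the higher-scored 50%, 236 bp without X and 170 bp without the proximal 2 Mb. The width difference, -70.5 bp, ran from -50.0 to -28.5 bp, and was -188.5 bp for regions held by both, -103 bp without X and -51.5 bp without the proximal 2 Mb, but 168 bp for the higher-scored 50%. The density difference, -1.93 regions per Mb, ran from -3.51 to -2.82, and was -6.55 for the higher-scored 50%, 0.37 without X and -0.058 without the proximal 2 Mb. The score difference, -0.08, ran from -0.14 to -0.06, and was -0.11 for regions held by both and -0.03 without X. Support by both was 50.1% with at least 50% of the region covered, 44.3% with 50% reciprocal overlap and 92.3% for the higher-scored 50%, and support by a single replicate ran from 66.7 to 69.8%. Its difference from the other arms, -0.69 points, ran from -0.15 to 0.38, and was -0.062, 2.01 and 7.77 points under those 3 settings and -3.07 without X. The median score difference of paired regions, 0.07, was 0.07 with 50% reciprocal overlap and -0.49 points as percentiles, a change of sign. For none of these was the cause tested. No paired analysis was possible because the lists belong to ChIP samples alone. Without read counts, the effect of depth on what was called could not be measured.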

Other observations

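Many 3L regions had a score that was exactly shared with another region of the same list. In the list of replicate 2 this held for 543 of 1369 regions (39.7%), against 40.2% on the other large arms. In replicate 1 it held for 231 of 1268 (18.2%), against 18.4%, and in the replicate set for 384 of 1654 (23.2%), against 25.3%. The commonest score of replicate 2, 0.882, was given to 66 regions, 10 of them on 3L. On 3L shared scores were mostly those of narrow regions, with 41.6% of the regions under 2 kb and 8.06% of those of 2 kb or more in the replicate set. By support, they were 53.3% of the regions held by neither replicate and 7.28% of those held by both. In the centromere-proximal 2 Mb they were 36.6% against 22.6% on the rest of 3L in the replicate set and 58.1% against 38.4% in replicate 2, but 12.9% against 18.4% in replicate 1.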
